A study of Homo sapiens with 6 samples.

Results

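The cytosolic ribosomal protein genes are described here in HT29 cells, a human colon adenocarcinoma line, that were sensitive or resistant to methotrexate (MTX), an antifolate that inhibits dihydrofolate reductase. A gene was taken if its symbol was RPL or RPS with a number and an optional A, L, X or Y, or was RPLP0, RPLP1, RPLP2 or RPSA, with pseudogenes and the RPS6K kinases left out. Of 19775 genes named by a probe set of their own, 56 met this rule, through 117 of the 54613 probe sets on the array, and the rule used no measured value. Of these genes, 21 encode proteins of the small subunit, 33 of the large subunit and 2 of the acidic stalk of the large subunit. Another 15 genes of the rule, among them RPL5, RPL10 and RPL13A, were named only by probe sets that also name other genes, and were not analysed here. RPLP0, RPSA and RPS27A were not analysed here either.

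RNA from 3 samples of sensitive cells and 3 samples of resistant cells was hybridized to 6 Affymetrix HG U133 PLUS 2.0 arrays, and the comparison asks which of these transcripts differ with resistance. The resistant cells were derived from the same line by stepwise exposure to MTX, up to resistance to 10 μM. Sensitive cells were kept in Ham's F12 with undialyzed serum. Resistant cells were kept in medium lacking glycine, hypoxanthine and thymidine, with dialyzed serum, so that medium and resistance cannot be told apart. The samples are called triplicates and are not known to come from separate cultures, so that the p-values measure only how far these samples spread, and that spread may be technical. The deposited values are MAS5 signals, and each was divided by its array's median (13.3 to 16.9), which gives a scaled signal of 1 at that median. Probe sets whose scaled signal averaged at least 1 were fitted with limma, and a call was an adjusted p under 0.05 over all genes or all probe sets tested. With bulk RNA, fewer cells of a kind and less RNA per cell cannot be told apart.

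The label of colon epithelium was checked with markers. Of 12 listed markers 9 were tested, and EPCAM, KRT8, KRT18, KRT19, KRT20 and LGALS4 had mean scaled signals above 100 in both groups, while CDX1, CDX2 and GPA33 were too dim to be tested. Of 12 markers of blood, vessel, stroma and other cells, 3 were tested. One of these, CD14, was called lower but passed the filter only through the sensitive arrays, and no mean was above 2.41 in either group. In resistant cells 6 of the 9 colon markers were lower, against 22.5% of all tested genes, among them KRT8 (log2 fold change -0.77) and LGALS4 (-0.71), and 1 was higher, against 12.4% (CDH17, a call not made after quantile or cyclic loess normalization), and their part in the results given here was not tested.

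Each ribosome carries one copy of most of these proteins, joined with ribosomal RNA in a small subunit that decodes the mRNA and a large subunit that forms the peptide bond. Their mRNAs are among the most abundant of a growing cell. Most begin with a cytosine followed by a run of pyrimidines, the 5′ terminal oligopyrimidine (TOP) motif, through which the mTOR pathway and the RNA-binding protein LARP1 control their translation. Such control acts on ribosome loading, which an array of total RNA does not measure.

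The starts of some of the genes that the results turn on are printed to show this motif, with 10 bases before and 20 bases from the annotated RefSeq start (GRCh38.p14) on the coding strand. Capitals mark the run of C or T from the first transcribed base, where that base is C and at least 4 more follow. The first 4 genes have probe sets that disagreed, RPS6 and RPL27A were lower in resistant cells, RPL39 has the longest run, and the last 3 set RPS27 beside its paralogue RPS27L and show RPL10L.
RPS23 (chr5:82278335-82278364, minus strand): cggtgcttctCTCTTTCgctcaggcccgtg
RPS21 (chr20:62387093-62387122, plus strand): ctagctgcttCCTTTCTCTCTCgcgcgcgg
RPL31 (chr2:101002279-101002308, plus strand): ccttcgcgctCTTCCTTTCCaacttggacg
RPS24 (chr10:78033853-78033882, plus strand): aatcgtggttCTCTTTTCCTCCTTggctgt
RPS6 (chr9:19380217-19380246, minus strand): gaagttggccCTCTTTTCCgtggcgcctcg
RPL27A (chr11:8682782-8682811, plus strand): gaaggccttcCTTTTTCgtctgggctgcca
RPL39 (chrX:119791611-119791640, minus strand): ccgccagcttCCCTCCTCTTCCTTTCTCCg
RPS27 (chr1:153990752-153990781, plus strand): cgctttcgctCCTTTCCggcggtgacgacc
RPS27L (chr15:63157458-63157487, minus strand): gatgccgagcgcagatcgcttgcagcttgc
RPL10L (chr14:46651762-46651791, minus strand): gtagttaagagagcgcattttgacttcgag
The runs of C or T were 7 bases long in RPS23, RPL27A and RPS27, 12 in RPS21 and 19 in RPL39. RPS27L and RPL10L had no such run at their annotated starts.

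Of the 56 genes, 48 had an entry in the RefSeq promoter table, and 34 of these (70.8%) had a pyrimidine start at a listed start, against 1404 of 27305 genes in the table (5.14%). Over listed starts the shares were 34 of 55 (61.8%) and 1429 of 35116 (4.07%). The motif was looked for only at the first base of the coding strand, so a start annotated a few bases away counts as lacking it. Among genes called lower in resistant cells 2 of 4 with an entry had it, RPS6 and RPL27A, and among genes not called 32 of 44 had it.

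**Figure D1:**
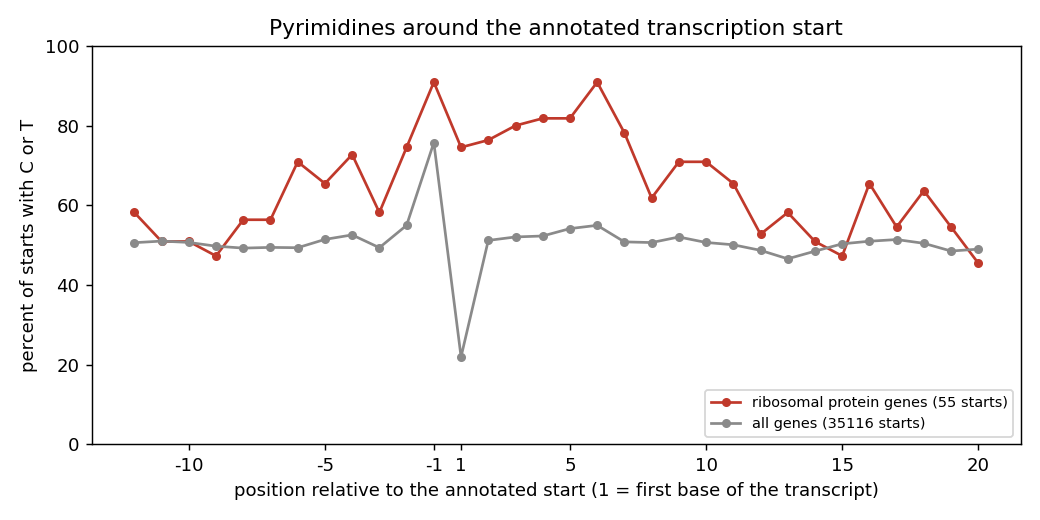
Percent of annotated starts with C or T at each position around the first base of the transcript (position 1), for 55 starts of ribosomal protein genes (red) and 35116 starts of all genes (grey). At position 1 the percent was 74.5 for ribosomal protein genes and 21.9 for all genes.

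At the level of genes, read from the brightest probe set that names the gene alone, few ribosomal proteins passed the test. Of 54 tested genes, 0 were called higher and 6 lower in resistant cells, and 48 were not called. Among all 11835 tested genes 12.4% were called higher and 22.5% lower, so the 11.1% of ribosomal protein genes called lower lay below the share of all genes. The median log2 fold change, resistant over sensitive, was 0.01 for the ribosomal protein genes (quartiles -0.04 and 0.04) and -0.10 for all tested genes (quartiles -0.41 and 0.25), a distance of 0.11. Leaving out 1 array moved this distance to between 0.03 (without the second resistant array) and 0.20 (without the first). Log2 fold changes of 47 genes lay within 0.2 of zero. None reached 3-fold, against 1.94% of all tested genes called higher and 2.19% called lower by at least 3-fold. The 3 sensitive and 3 resistant arrays did not overlap for 11 genes (20.4%), of which 4 had all resistant arrays above and 7 below, against 46.2% of all tested genes.

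The number called higher turned with the scaling of the arrays. Quantile normalization moved the median of all genes from -0.10 to 0.02 and that of the ribosomal protein genes from 0.01 to 0.02, so the distance of 0.11 was lost (-0.00058). After cyclic loess normalization the distance was 0.04. With undivided deposited signals, and with scaling to the median of probe sets past the filter, it stayed at 0.11. It called 5 ribosomal protein genes higher and 6 lower, with 21.1% of all genes higher and 18.8% lower. The 5 were RPL12, RPL35A, RPL37, RPS4X and RPS7, with log2 fold changes of 0.13 to 0.17 after division by the array median.

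The summed scaled signal of the 54 genes was 27459, 24814 and 25571 on the sensitive arrays and 25746, 26721 and 25447 on the resistant arrays. The means were 25948 ± 1362 (SD, n = 3) and 25971 ± 666 (SD, n = 3), a change of 0.0898% (exact permutation test, two-sided p = 1, where 3 against 3 cannot go below 0.1). The groups overlapped, and the first sensitive array was the highest of all. On that array 46 of the 50 genes averaging at least 100 had their highest sensitive value. Without that array 2 of the 54 genes, RPL12 and RPS4X, were called higher (log2 fold changes 0.23 and 0.20, adjusted p = 0.019 and 0.029 from limma). Of all tested genes 12% were then called higher.

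**Figure D2:**
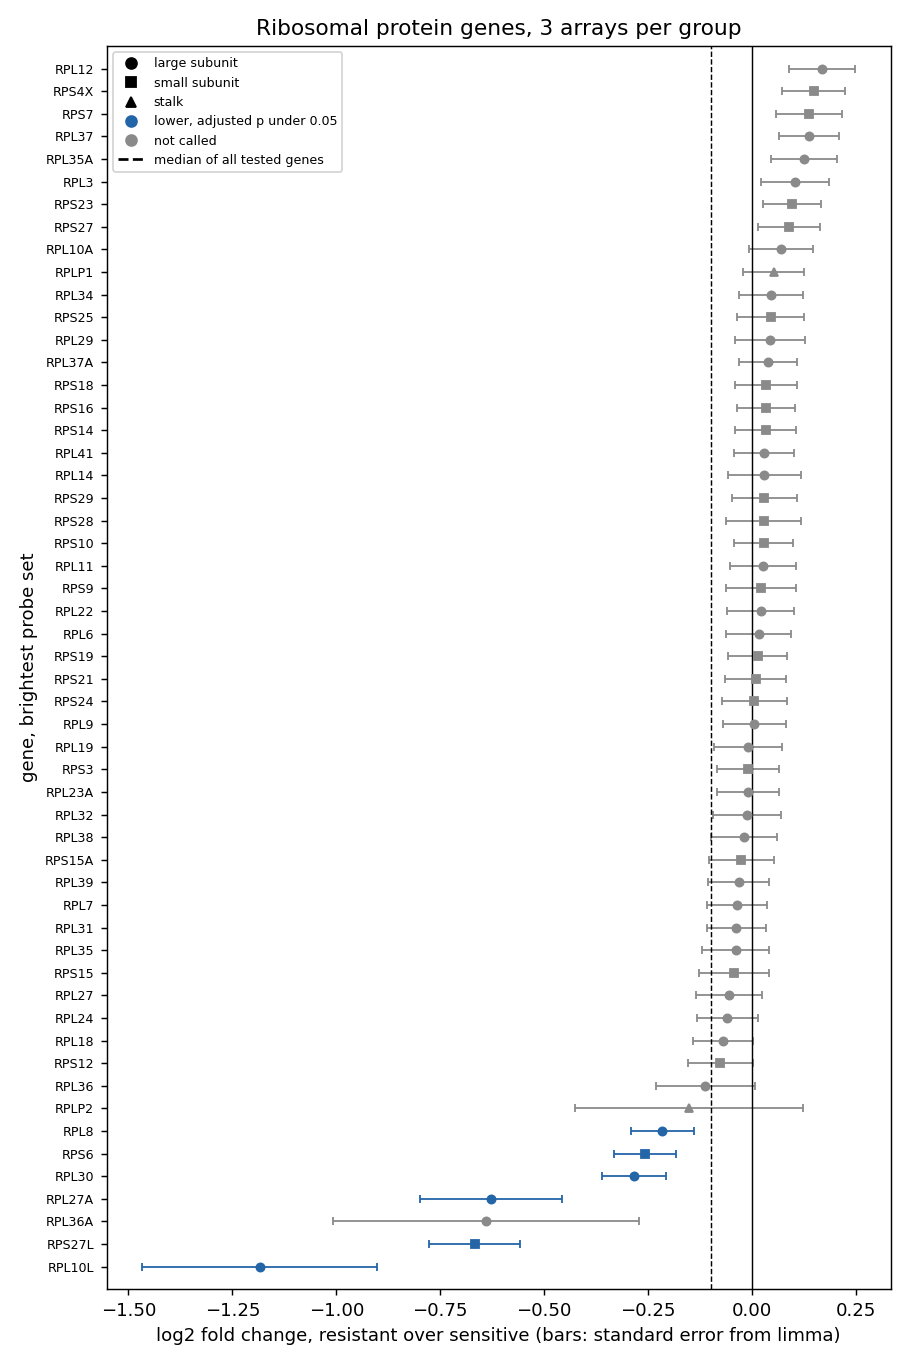
Log2 fold change, resistant over sensitive, of the 54 tested ribosomal protein genes with its standard error from limma (3 arrays a group). Most genes sit close to zero, to the right of the median of all tested genes at -0.10 (dashed), and the 6 genes called lower are in blue.

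Among the 21 small subunit genes the median log2 fold change was 0.03, with 0 called higher and 2 lower. The shares of all tested genes were 12.4% and 22.5%. RPS27L, a paralogue of RPS27 that p53 can induce, fell most. Its scaled signals were 210, 185 and 198 on the sensitive arrays and 136, 117 and 121 on the resistant arrays. Every resistant array lay below every sensitive one, and the sensitive mean was 1.59-fold the resistant mean (log2 fold change -0.67, standard error 0.11, adjusted p = 6.1e-06 from limma). This call was lost with the plain test of unequal variances, which called none of these genes. A second probe set of RPS27L was also lower (log2 fold change -0.70, adjusted p = 0.0079), a call kept in 11 of 17 alternatives and lost, among others, without the third sensitive array and after quantile or cyclic loess normalization. The dimmest, at scaled signals of 2.60 to 3.34, gave -0.11 (adjusted p = 0.76). RPS27 itself, a zinc finger protein of the small subunit, had scaled signals of 584, 540 and 524 in sensitive and 584, 603 and 564 in resistant cells, which overlapped (log2 fold change 0.09, adjusted p = 0.38).

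RPS6, the substrate of the S6 kinases, was the other small subunit gene called. Its brightest probe set gave 636, 578 and 580 on the sensitive arrays and 496, 511 and 493 on the resistant arrays. The groups did not overlap and the sensitive mean was 1.20-fold the resistant mean (log2 fold change -0.26, standard error 0.08, adjusted p = 0.0066). Its other bright probe sets gave log2 fold changes of -0.25 and -0.26 (adjusted p = 0.013 and 0.018 in the fit of probe sets). The first of these calls was lost without the third resistant array, and the second without the first sensitive or the first resistant array. In contrast, a dim probe set gave 1.00 (adjusted p = 0.056) with overlapping groups.

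RPS4X, encoded on the X chromosome, was at 579, 512 and 525 in sensitive and 580, 629 and 580 in resistant cells. Its resistant arrays lay above the sensitive ones without passing the test (log2 fold change 0.15, adjusted p = 0.13). RPS7, which can bind MDM2, gave a log2 fold change of 0.14 (adjusted p = 0.18). RPS19, mutated in Diamond-Blackfan anaemia, gave 705, 637 and 665 against 666, 682 and 677, a log2 fold change of 0.01 with a standard error of 0.07 (adjusted p = 0.90). RPS16, with the second highest signal of all brightest probe sets of these genes, was at 0.03.

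Among the 31 tested large subunit genes the median log2 fold change was -0.01, with 0 called higher and 4 lower. Of all tested genes 12.4% were higher and 22.5% lower. RPL30 and RPL8, both proteins of the large subunit, fell by less. RPL30 was at 585, 538 and 540 in sensitive and 454, 465 and 446 in resistant cells (log2 fold change -0.28, standard error 0.08, adjusted p = 0.0034). RPL8 was at 667, 597 and 586 in sensitive and 546, 531 and 513 in resistant cells (log2 fold change -0.22, standard error 0.08, adjusted p = 0.023). For both genes the groups did not overlap. The call of RPL8 was lost without the first sensitive or the third resistant array (adjusted p = 0.10 each). The calls of RPS6, RPL30 and RPL8 were all lost with the deposited signals not divided by the array median, with scaling to the median of probe sets past the filter, without a filter, with a plain test of unequal variances and with limma without a trend.

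RPL27A and RPL10L were called lower on dimmer probe sets. RPL27A, of the large subunit, was at 17.6, 15.3 and 16.3 in sensitive and 9.11, 12.3 and 10.6 in resistant cells (log2 fold change -0.63, standard error 0.17, adjusted p = 0.0035). RPL10L, a retrotransposed copy of RPL10 known from the testis, was at 4.75, 3.66 and 3.98 in sensitive and 2.86, 1.51 and 1.37 in resistant cells (log2 fold change -1.18, standard error 0.28, adjusted p = 0.0010). No resistant array reached the lowest sensitive one in either gene, and both calls were lost with plain two-group tests in place of limma. RPL10 was not analysed here, so that signal from its transcript on the probes of RPL10L was not tested.

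The other large subunit genes named did not pass the test. RPL12, at the base of the stalk, was at 485, 430 and 422 in sensitive and 503, 506 and 490 in resistant cells, with the resistant arrays above (log2 fold change 0.17, adjusted p = 0.099). RPL37 was likewise above without overlap (0.14, adjusted p = 0.14), while RPL35A (0.13, adjusted p = 0.23) and RPL3, which lies near the peptidyl transferase centre (0.10, adjusted p = 0.34), overlapped. RPL11, which with RPL5 and 5S rRNA can bind MDM2, was at 481, 433 and 453 in sensitive and 459, 469 and 464 in resistant cells (log2 fold change 0.03, standard error 0.08, adjusted p = 0.83). RPL22, an RNA-binding protein of the large subunit, was at 0.02 (adjusted p = 0.87), and RPL37A was at 0.04 (adjusted p = 0.71).

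On the X chromosome, RPL39 was at 655, 573 and 667 in sensitive and 629, 625 and 596 in resistant cells (log2 fold change -0.03, adjusted p = 0.77). RPL36A was read only by a dim probe set, at 1.61, 2.51 and 3.16 in sensitive and 0.827, 2.14 and 1.91 in resistant cells, which overlapped (-0.64, standard error 0.37, adjusted p = 0.18). The muscle paralogue RPL3L and the testis paralogue RPL39L had mean scaled signals of at most 0.428 in either group and were not tested. Of the stalk proteins, which recruit elongation factors, RPLP1 was at 606, 559 and 580 in sensitive and 583, 623 and 604 in resistant cells (log2 fold change 0.05, adjusted p = 0.62). RPLP2 was read at only 2.14 to 3.16, with overlapping groups (-0.15, standard error 0.27, adjusted p = 0.71).

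The brightest probe sets of 50 of the 54 genes had mean scaled signals of 152 to 807, and their standard errors of log2 fold change were 0.07 to 0.12. The highest signal of any probe set on an array was 763 to 893 scaled units, and on 4 of 6 arrays it was that of RPS23. Whether signals so near the upper end follow the RNA in proportion was not tested. Of the 117 probe sets, 38 ended in _s_at and 35 in _x_at, the suffixes for probes shared between transcripts. The _x_at share was 29.9%, against 7.30% of all probe sets naming 1 gene. Signal from the many processed pseudogenes and from paralogues therefore cannot be separated from that of the named gene.

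**Figure D3:**
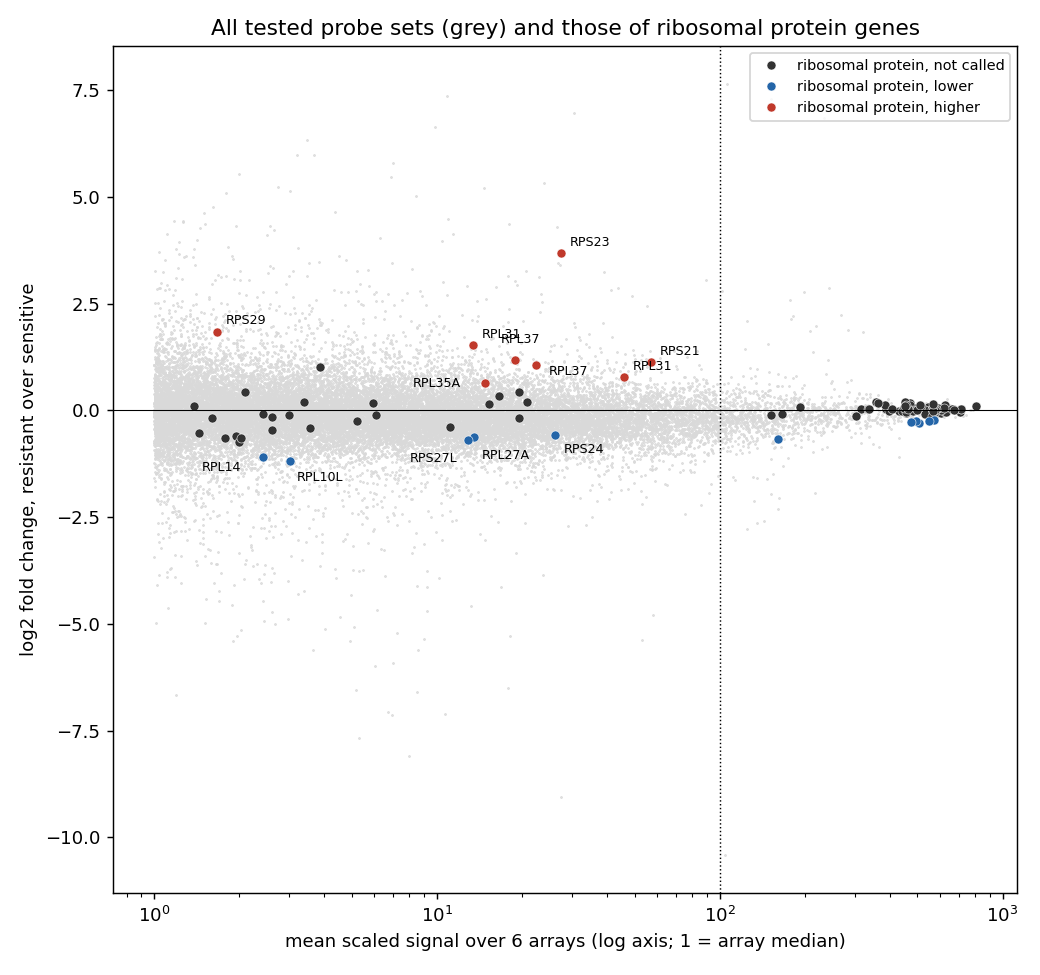
Log2 fold change, resistant over sensitive, against the mean scaled signal (log axis) of 26833 tested probe sets (grey) and 108 tested probe sets of ribosomal protein genes. Those to the right of the dotted line at 100 lie between -0.67 and 0.20, and all 8 called higher lie to its left.

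Taken probe set by probe set, the picture split by brightness. Of 108 tested probe sets 8 were called higher and 11 lower, against 9.52% of all 26833 tested probe sets higher and 19.5% lower. By at least 3-fold 2 were higher, one of RPS23 and one of RPS29, and 0 lower, against 1.56% and 1.9% of all. The one of RPS29 averaged under 1 in sensitive cells and passed the filter only through the resistant arrays, so that 7 of the higher calls, and 1 by at least 3-fold, had both groups past the filter. No tested probe set of these genes had a mean scaled signal between 57.2 and 152, and a border of 100 was set in this gap after the values were seen.

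Above the border, 71 probe sets of 50 genes held 0 higher and 6 lower calls (8.45%), against 9.67% higher and 25.8% lower among all 1261 probe sets this bright. Their log2 fold changes ran from -0.67 to 0.20, with a median size of 0.04, against 0.19 for all probe sets this bright. The 6 were the 3 bright probe sets of RPS6 and those of RPL8, RPL30 and RPS27L. Where a gene had 2 or more bright probe sets, as 15 genes did, these differed from each other by a median of 0.04 and at most 0.16 in log2 fold change.

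Below the border, 37 probe sets of 25 genes held 8 higher (21.6%) and 5 lower (13.5%) calls, against 9.51% higher and 19.2% lower among all 25572 dimmer probe sets tested. The 8 include that of RPS29, which passed the filter only through the resistant arrays and is no support. Shares among probe sets with both groups past the filter were not counted. Their log2 fold changes ran from -1.18 to 3.69, with a median size of 0.54, against 0.36 for all dimmer probe sets. The array annotation gave a RefSeq mRNA accession for 37 of the 71 bright probe sets and for 0 of the 37 dim ones. Of the 21 genes with tested probe sets on both sides of the border, the median size of the log2 fold change was 0.41 on dim and 0.04 on bright probe sets. In 8 of the 30 genes with 2 or more tested probe sets, a dim probe set was called while the brightest was not. This made 6 genes higher (RPS23, RPL31, RPL37, RPS21, RPL35A and RPS29) and 2 lower (RPS24 and RPL14). The share of all genes with such a split was not counted, so the split is no result particular to ribosomal protein genes. What RNA these dim probe sets bind was not tested, since no probe sequences were used here.

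RPS23, a protein of the decoding centre, showed the widest split. Its dim probe set was at 4.18, 4.03 and 3.63 on the sensitive arrays and 54.7, 47.7 and 50.4 on the resistant arrays. The means were 3.94 ± 0.282 and 50.9 ± 3.57 (SD, n = 3 each), a 12.9-fold rise (log2 fold change 3.69, standard error 0.16, adjusted p = 2.1e-13). The groups were far apart, and the call held under all 17 alternatives run for it, with log2 fold changes of 3.63 to 3.87. The brightest one gave 843, 745 and 753 on the sensitive arrays and 794, 893 and 815 on the resistant arrays, which overlapped (log2 fold change 0.10, standard error 0.07, adjusted p = 0.30).

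RPS23 lies in chromosome band 5q14, near the gene of dihydrofolate reductase. Its nearest measured neighbours in the order of the RefSeq annotation were higher in resistant cells, on both sides. SSBP2 and ATG10, which precede it, had log2 fold changes of 3.41 and 3.27, and TMEM167A, which follows, had 1.84. Each was read from its brightest probe set alone. The study reported a smaller rise of SSBP2, both on the arrays and by PCR. ATP6AP1L, between RPS23 and TMEM167A, was at 0.195 to 0.320 on the sensitive arrays, well under the filter, and at 10.8 to 15.9 on the resistant arrays, so that no fold is given for it. ATP6AP1L thus passed the filter only through the resistant arrays, and its rise is no support. In SSBP2, ATG10 and TMEM167A all resistant arrays lay above all sensitive ones. The groups did not overlap in 46.2% of all tested genes, in either direction.

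RPL31, a protein at the exit of the peptide tunnel, had 3 tested probe sets. The brightest was at 774, 667 and 718 in sensitive and 721, 697 and 682 in resistant cells, which overlapped (log2 fold change -0.04, adjusted p = 0.72). The next was at 36.8, 31.7 and 32.7 in sensitive and 63.6, 60.0 and 50.7 in resistant cells (0.78, adjusted p = 0.00020). The dimmest was at 6.18, 6.59 and 7.40 in sensitive and 25.5, 21.3 and 13.4 in resistant cells (1.53, adjusted p = 5.4e-06). Both dim probe sets rose without overlap while the brightest did not pass the test.

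RPL37, a zinc-binding protein of the large subunit, had 4 tested probe sets. Its brightest probe set was at 620, 582 and 583 in sensitive and 659, 676 and 629 in resistant cells, with all resistant arrays above but no call. A dim one rose from 13.95, 13.3 and 15.9 to 33.2, 33.5 and 24.6 (log2 fold change 1.07, adjusted p = 3.5e-05). Another dim one gave 1.19 (adjusted p = 2.1e-05), and the dimmest, at 2.85 to 3.70, gave 0.19 (adjusted p = 0.53). For both RPL31 and RPL37 the third resistant array was the lowest of the resistant arrays on each probe set called higher. It was also the lowest on the probe sets of RPS21, RPL35A and RPS29 called higher, but not on that of RPS23.

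RPS21, a small protein of the small subunit, was at 602, 559 and 570 in sensitive and 566, 598 and 577 in resistant cells on its brightest probe set (log2 fold change 0.01, adjusted p = 0.94). Its other probe set rose from 38.1, 33.8 and 35.5 to 90.8, 77.6 and 67.7, with no overlap (1.13, adjusted p = 1.8e-06). A dim probe set of RPL35A rose from 12.6, 10.9 and 11.2 to 21.0, 17.3 and 15.6 (0.63, adjusted p = 0.0065). RPS29, the zinc finger protein of the small subunit head, had a brightest probe set at 0.03 (adjusted p = 0.81). Its other tested probe set was at 0.486, 1.31 and 0.552 in sensitive and 3.00, 2.62 and 2.07 in resistant cells, and since its sensitive mean lay under the filter no fold is given and its call is no support. Calls on the dim probe sets of RPL31, RPL37, RPS21 and RPL35A were lost only with plain two-group tests among the alternatives run.

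The probe sets that fell while the brightest was not called were less firm. In RPS24, whose transcripts differ by splicing at the end of the coding region, a dim probe set was at 27.5, 32.4 and 33.9 in sensitive and 19.4, 21.2 and 22.5 in resistant cells (log2 fold change -0.57, adjusted p = 0.0065). The brightest was at 0.01 (adjusted p = 0.96). The lower call was lost without the third sensitive array, after quantile or cyclic loess normalization and with plain two-group tests. In RPL14, of the large subunit, a dim probe set was at 3.64, 2.85 and 2.91 in sensitive and 0.594, 2.08 and 2.54 in resistant cells (-1.09, adjusted p = 0.038), of which the first resistant array was by far the lowest. That call was kept in 5 of 16 alternatives, and was lost without the first or second resistant array or the first sensitive one.

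**Figure D4:**
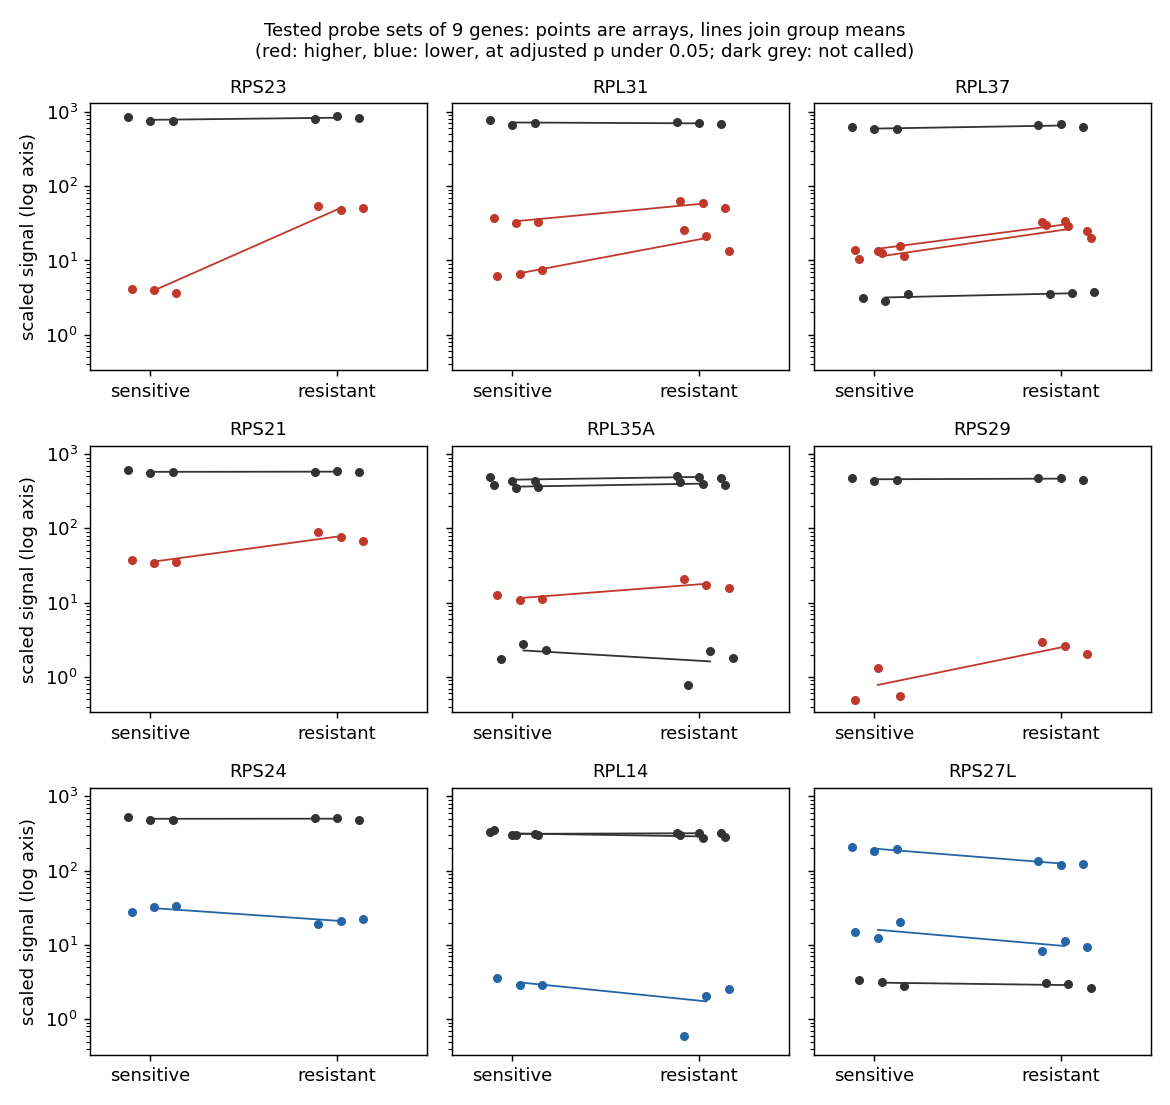
Scaled signal (log axis) of every tested probe set of 9 ribosomal protein genes on the 3 sensitive and 3 resistant arrays, with lines between group means. In RPS23 the dim probe set rose 12.9-fold while the brightest overlapped between the groups, and in RPS27L the 2 brighter probe sets fell together.

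Other genes of the translation machinery were taken from written lists and read in the same fit. Of 63 tested factors of ribosome assembly and rRNA processing, 40 were lower and 1 was higher (MAK16, 0.50), against 22.5% and 12.4% of all tested genes, with a median log2 fold change of -0.44, or -0.34 relative to all genes. UTP14A, of the small subunit processome, dropped from 41.9, 36.2 and 43.9 to 18.2, 12.4 and 18.4 (-1.33, adjusted p = 3.6e-08). RRS1, which helps to load the 5S particle, fell by 1.13 on the log2 scale, the small subunit export factor LTV1 fell by 1.05 and the nucleolar protein LYAR fell by 1.01. The median of the list stayed below that of all genes under each of the 4 other scalings, by 0.28 to 0.34, with 28 to 38 genes lower and 1 to 4 higher. Under these scalings 18.8% to 23.3% of all tested genes were lower and 16.1% to 22.7% higher.

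Of 15 genes of RNA polymerase I and its factors, which make the precursor of rRNA, 5 were lower and 0 higher, against 22.5% and 12.4% of all tested genes. Their median was -0.36, or -0.26 relative to all genes. After quantile normalization it was -0.19, or -0.21 relative to all genes. After cyclic loess normalization it was -0.17, or -0.21 relative to all genes. POLR1G, a subunit of the polymerase, was the lowest at -0.83 (adjusted p = 5.8e-05), followed by POLR1B (-0.59), POLR1H (-0.55) and TAF1D (-0.53). Of 32 initiation and elongation factors 13 were lower and 2 higher, against the same shares of all genes. Their median of -0.19 was -0.09 relative to all genes. The median itself shrank to -0.07 after quantile normalization, -0.06 after cyclic loess normalization and -0.09 with scaling to the filtered median. Relative to all genes it stayed between -0.092 and -0.097 under the other scalings. EIF3J, a loosely bound part of initiation factor 3, was at 172, 144 and 162 in sensitive and 85.5, 68.7 and 86.6 in resistant cells (-0.99, adjusted p = 2.6e-08). EIF6, which keeps the large subunit from joining too early, was at -0.94, EIF2S1 at -0.55 and EIF2S3 at 0.61. With other scalings 2 or 3 polymerase I genes and 3 to 9 initiation and elongation factors were higher, against 16.1% to 22.7% of all tested genes.

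Of 5 tested ribosomal proteins or paralogues outside the symbol rule 1 was lower, against 22.5% of all tested genes. This was RPL7L1 (-0.40, adjusted p = 0.0097), and FAU, the precursor of the small subunit protein eS30, was at -0.14 (adjusted p = 0.21). Of 23 tested regulators of ribosomal protein synthesis 2 were higher and 4 lower, no larger shares than the 12.4% and 22.5% of all tested genes. Their median of -0.09 turned positive (0.01 to 0.05) under 3 of the 4 other scalings. Relative to all genes it was 0.0099 in the main fit and 0.0067 to 0.019 under the 4 other scalings. EIF4EBP1, an mTOR target that holds back cap-dependent initiation, rose from 15.2, 13.4 and 11.6 to 27.3, 22.2 and 23.2 (0.86, adjusted p = 8.6e-05), and the kinase RPS6KA3 rose by 0.53. MDM2, the ubiquitin ligase of p53, fell by 0.68 on the log2 scale and LARP4 fell by 0.45. LARP1, which binds the TOP motif, was at 179, 157 and 167 in sensitive and 180, 152 and 176 in resistant cells (0.01, adjusted p = 0.94).

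**Figure D5:**
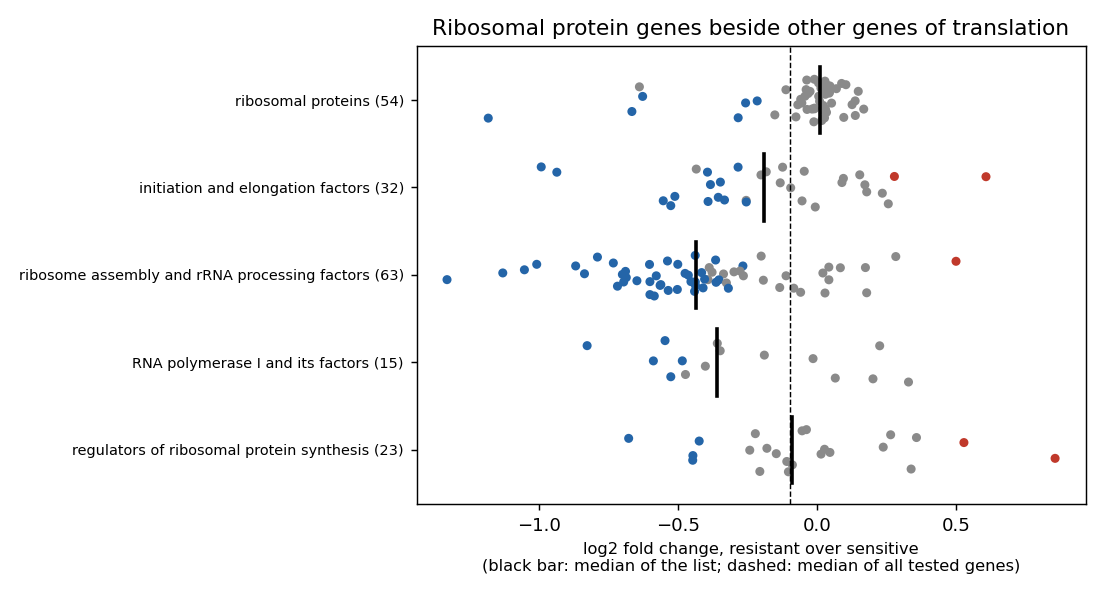
Log2 fold change, resistant over sensitive, of each tested ribosomal protein gene and of genes of 4 other lists (number tested in brackets), with the median of each list as a black bar. Genes called lower are blue and genes called higher red, and the medians are 0.01, -0.19, -0.44, -0.36 and -0.09 from top to bottom.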

How the data were processed

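The deposited values are the MAS5 signals of the authors, an intensity on a linear scale that MAS5 scales over the whole array. Its version is not given in sources used here. Of 54675 probe sets 62 controls were left out, 41091 named 1 gene and 1801 several in the platform annotation, and only the former were used for genes. Entrez identifiers gave current symbols (RefSeq, GRCh38.p14) for 41037 probe sets. Signals were divided by the median of their array, with 0.01 as the lowest value allowed. Log2 values of probe sets averaging at least 1 on this scale went into lmFit and eBayes (limma 3.58.1, with a trend of variance on mean, in R 4.3.3), with Benjamini-Hochberg adjustment over all 11835 genes (brightest probe set) or 26833 probe sets tested. Errors from limma borrow from other probe sets. Plain tests of 2 groups, with equal or unequal variances, were run on the same values as alternatives, since the study used such a test in GeneSpring. Calls used no fold threshold, and the 3-fold count stands beside them. The number of arrays limits the precision.

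Genes named are the 8 highest and 8 lowest log2 fold changes, genes whose probe sets disagree in call, genes on X or in 5q14, paralogue pairs, genes of known roles, the brightest 3, and up to 4 called genes of each list. The genes, lists and rules were chosen with earlier results of these data known. MAK16, LARP1, FAU, the cell markers and the neighbours of RPS23 fall outside this rule and were named after their values were seen. The fit was tested on simulated data. RNA integrity was read from the ratio of 3' to 5' control signals, which for ACTB was 1.14 ± 0.0220 (sensitive) and 1.25 ± 0.0698 (resistant; SD, n = 3 each), and 1.01 ± 0.00540 and 1.02 ± 0.0338 for GAPDH (exact permutation p = 0.1 and 0.4, with 0.1 the smallest possible). Scan dates were not used here, and batches were therefore not tested. Start sequences came from the RefSeq promoter table, and figures were drawn with matplotlib 3.10.9.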

Additional observations from a re-analysis of the deposited data

How the results depend on the processing

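Over 20 alternatives to the main settings, the log2 fold changes of 28 ribosomal protein genes were recomputed 537 times, and 441 kept both direction and side of the threshold. Genes called lower numbered 3 in place of 6 with undivided deposited signals and with scaling to the median of probe sets past the filter. The shares of all genes were 23.3% and 21.2%, against 22.5% in the main fit. Lower genes also numbered 3 without a filter (11.4% of all genes), with the plain test of equal variances (9.49%) and with limma without a trend (15.9%). With unequal variances there were 0 (1.13% of all genes). The second brightest probe set, tested for only 30 of these genes against 54 in the main fit, gave 3 lower (22.3% of all genes). Genes called higher numbered 5 in place of 0 after quantile normalization (21.1% of all genes) and with scaling to the filtered median (19.5%). After cyclic loess normalization 7 were higher (22.7% of all genes). In the main fit 12.4% of all genes were higher. The mean of a gene's probe sets also gave 5 higher genes (8.67% of all genes). So did the second brightest (9.48%, 30 of these genes tested) and the brightest plain _at probe set (12.4%, 28 tested). Leaving out 1 array gave 0 to 2 higher and 5 to 6 lower genes, 8 to 13 higher and 8 to 11 lower probe sets, medians of -0.02 to 0.05 and changes of the summed signal of -2.05% to 3.09%. Of all genes, 9.63% to 12.8% were then higher and 16.1% to 30.4% lower. By at least 3-fold 1 of 54 genes was called with the mean and 2 of 30 with the second brightest probe set. The shares of all genes at least 3-fold under these choices were not counted, so these numbers are no result particular to ribosomal protein genes. The second brightest probe sets include that of RPS29, which passed the filter only through the resistant arrays. Probe sets called higher, 8 in the main fit, numbered 21 (quantile), 26 (cyclic loess), 17 (filtered median), 5 (equal variances) and 1 (unequal variances). Probe sets called lower, 11 in the main fit, numbered 5 (undivided, filtered median, no filter), 7 (cyclic loess), 3 (equal variances), 0 (unequal variances) and 4 (no trend). The shares of all probe sets called under these alternatives were not counted, so these numbers are no result particular to ribosomal protein genes. The median log2 fold change of 0.01 became 0.0746 (cyclic loess), 0.11 (filtered median) and 0.12 (second brightest), and the change of the summed signal of 0.0898% became 4.92% (cyclic loess) and 8.04% (filtered median). The direction turned for RPL31 with the mean (0.76), second brightest (0.78) and plain _at probe set (1.53), for RPS24 with the same choices (-0.28, -0.57 and -0.57), for RPS6 with the mean (0.0583) and plain _at probe set (1.00), and for RPL14 with the plain _at probe set (-1.09). These follow from the probe set read. The cause of the other moves was not tested. With the replicate number as a block 3 genes and 13 probe sets were higher and 6 genes lower. Of all genes, 15% were then higher and 27.6% lower, against 12.4% and 22.5% in the main fit. The share of all probe sets higher with this block was not counted. The replicate numbers are not known to pair the samples (correlations of deviations 0.14, 0.0072 and 0.079). Sensitive samples 1 and 3 correlated best with the resistant sample of their own number, and sensitive sample 2 with resistant sample 3. Signals near the array median limit what the dim probe sets show.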
